A study of Mus musculus with 12 samples.

Results

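The genes described here are 9 protein-coding genes of mature oligodendrocytes, the myelin-forming glia of the brain: Mbp, Mog, Mag, Mobp, Cnp, Aspa, Opalin, Ugt8a and Gjc3. They were chosen by name from a table of 33250 gene symbols, and all 9 passed the filter on low counts that left 19325 genes for testing. Their levels were read in bulk hippocampus of 12 male mice, adult per the series title. The labels give 6 animals as cKO, in which Cre recombinase in Emx1 positive cells is to remove the miR379-410 microRNA cluster, and 6 animals as wild type (WT). Emx1-driven Cre acts in excitatory neurons and in part of the glia of the dorsal forebrain, so cells of other origin keep the cluster in cKO animals, and the labels do not say whether WT animals carried a floxed allele or Cre. Setting cKO against WT asks what loss of the cluster does to RNA levels in the whole tissue. Values are CPM, a gene's counts on a common library size, scaled between libraries by TMM, a method that corrects for differences in library composition.

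Myelin is a spiral of oligodendrocyte membrane around axons. Mbp holds the cytoplasmic faces of the membrane together. Galactolipids made by Ugt8a give the sheath its lipid character. In the hippocampus myelin lies mainly in the fibre tracts along its borders, such as the alveus and fimbria, and more thinly within the cell and dendrite layers. In bulk tissue, fewer oligodendrocytes and less RNA per oligodendrocyte cannot be told apart.

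Library totals ran from 44803793 to 51095816 counts in cKO and from 42360624 to 50804084 counts in WT, and the lowest count of any of the 9 genes in any library was 319, for Aspa. B830012L14Rik, a transcript just upstream of the cluster on chromosome 12, stood at 17.4 to 25.8 CPM in the libraries labelled cKO 2 to 6, at 0.788 CPM in the library labelled cKO 1, and at 0.310 to 0.865 CPM in WT. The library labelled cKO 1 thus lay with WT there, so its deletion is not settled. The genotype comparison, the pair correlations, the likeness ranking and the marker relations are also given without it, and the spread and levels below include it. Choroid plexus markers, headed by Ttr, were summed at 55.9 to 5560 CPM in cKO and 86.8 to 8300 CPM in WT, with cKO 4 lowest. The sum of neuron markers such as Snap25 and Thy1 was 5900 to 6760 CPM in cKO and 6020 to 6820 CPM in WT. Among markers of Schwann cells, the myelin-forming glia of peripheral nerve, Pmp2 was at 0 to 0.0426 CPM in cKO and 0 to 0.0875 CPM in WT. Nearly all of that list's sum of 77.6 to 89.8 CPM in cKO and 82.5 to 94.1 CPM in WT came from Drp2.

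Per kilobase of annotated exon (GENCODE M21, GRCm38), Mbp was the most abundant of the 9, at 229 ± 43.5 CPM per kilobase in cKO and 242 ± 40.3 in WT (SD, n = 6 each). Mobp followed at 83.3 ± 16.8 in cKO and 85.7 ± 13.7 in WT, and Cnp at 52.0 ± 9.42 in cKO and 55.2 ± 7.43 in WT. Mag, Mog, Gjc3 and Ugt8a came next, with means of 31.4, 17.7, 10.1 and 7.09 CPM per kilobase in cKO and 32.9, 19.0, 11 and 8.31 in WT. Opalin, at 3.64 ± 0.586 in cKO and 4.29 ± 0.953 in WT, and Aspa, at 1.48 ± 0.329 in cKO and 1.77 ± 0.308 in WT, were lowest. The ranges over the 12 animals did not overlap between Mbp and Mobp (167 to 306 against 61.5 to 108 CPM per kilobase) or between Opalin and Aspa (2.95 to 6.12 against 1.13 to 2.34), while the other 6 neighbouring pairs in this order overlapped. These ranges pool animals in which the genes rise and fall together. Within cKO 4, the lowest library of all 9 genes, the same order held, from 167 for Mbp to 1.13 for Aspa. It also held within WT 5, the highest library, from 306 to 2.34. The exon length counts every annotated exon once, and a gene whose main transcript uses few of them reads too low on this scale. Mbp lies on chromosome 18 from 82475146 to 82585637 (plus strand), Mobp on chromosome 9 from 120149707 to 120181484 (plus strand), and Cnp on chromosome 11 from 100574904 to 100591729 (plus strand). Cnp shares 154 exon bases with Dnajc7 on the opposite strand, at a mean of 121 CPM, and with no stated strand setting reads of that stretch cannot be told apart.

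No gene of the 9 passed the genotype test. edgeR's quasi-likelihood test called 0 of 9 at an adjusted p of 0.05 over all genes tested, and the background was 0.0103% (2 of 19325 genes). At an unadjusted p under 0.05 it was also 0 of 9, against 9.54% of all genes tested, and DESeq2 and limma-voom called 0 of 9. In 0 of 9 were all cKO libraries below every WT library, against 0.223% of all genes tested. All 9 estimates were below 0, which 46.6% of all genes shared, and their median log2 fold change was -0.10 beside 0.01 over all genes tested. The 9 genes varied together from animal to animal, so their 9 signs are not independent of each other. Without the library labelled cKO 1 the median was -0.15, and without cKO 4 or WT 5 it was -0.03.

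Of the genes of compact myelin, Mbp, whose protein binds the inner faces of the membrane, had a lowest, median and highest level of 1415, 1993 and 2317 CPM in cKO and of 1717, 1919 and 2594 CPM in WT. Mobp, which encodes a small basic protein of the same compartment, had 421, 600.4 and 706 CPM in cKO and 478, 569 and 740.2 CPM in WT. In both genes cKO 4 and cKO 5 were below every WT animal, the other 4 cKO animals lay among the WT animals, and the cKO median was above the WT median although the cKO mean was lower. The log2 fold change was -0.08 ± 0.13 (SE, 95% interval -0.37 to 0.20, edgeR adjusted p = 0.895) for Mbp and -0.04 ± 0.13 (-0.33 to 0.25, edgeR adjusted p = 0.95) for Mobp. Mbp was at -0.15 and Mobp at -0.09 without the library labelled cKO 1. Mbp was at -0.00647 without cKO 4 and -0.00452 without WT 5. The sign of Mobp turned to 0.03 without cKO 4, 0.01 without cKO 5 and 0.04 without WT 5.

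**Figure D1:**
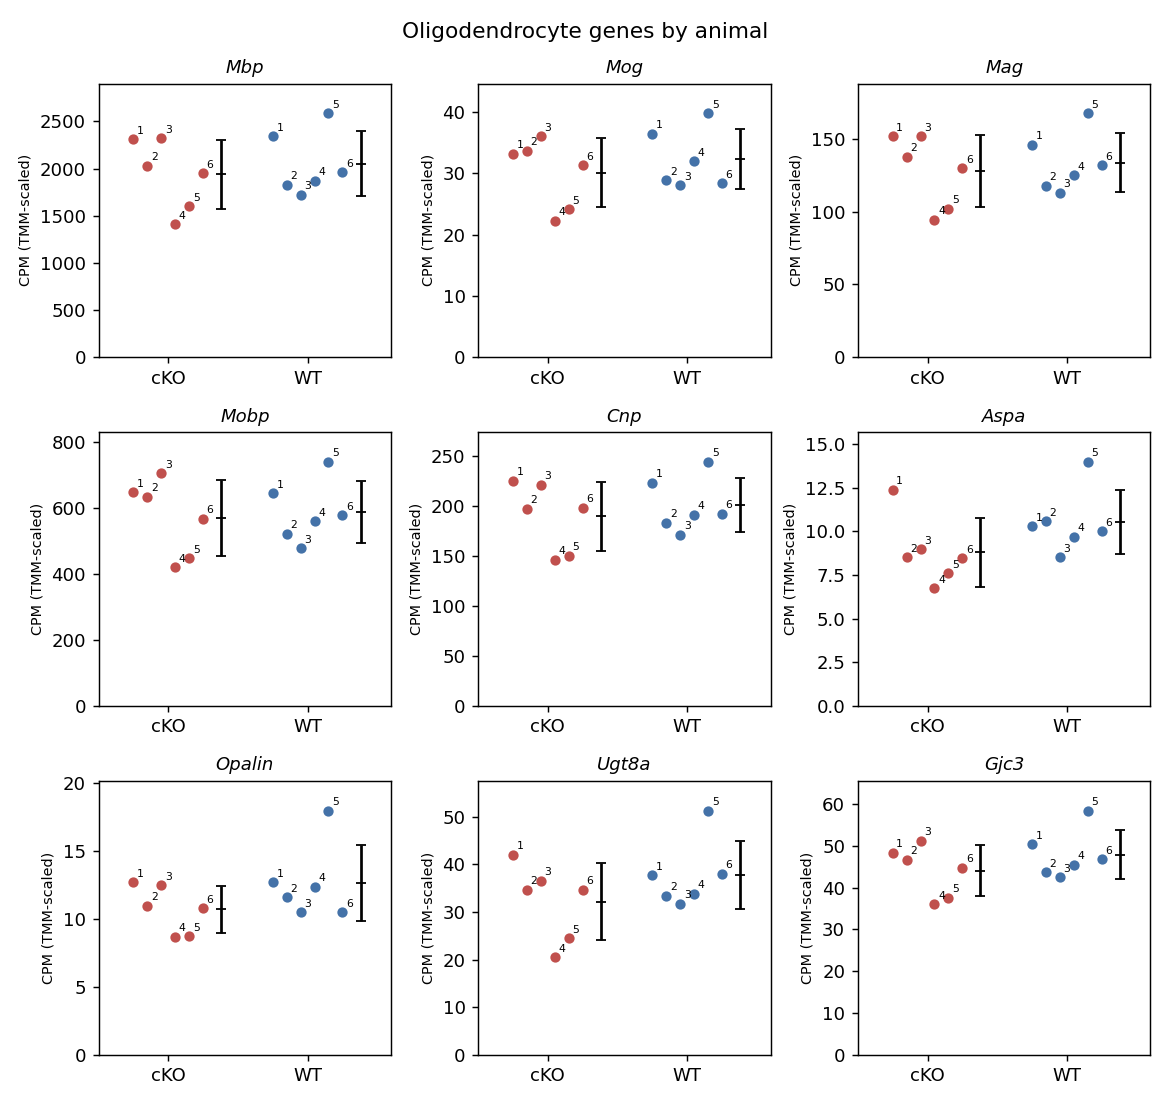
Level of each of the 9 genes in CPM (y axis, from 0) in the 6 cKO and 6 WT animals, each point numbered by animal, with the mean and SD of each genotype as a bar. Animals cKO 4 and cKO 5 sit below every WT animal in all 9 panels, and WT 5 is the highest point of every panel.

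Mag and Mog encode surface proteins of the sheath, Mag at the face next to the axon and Mog at the outermost layer. Mag had 94.6, 134 and 152 CPM in cKO and 113, 129 and 168 CPM in WT (lowest, median, highest), and Mog had 22.3, 32.3 and 36.1 CPM in cKO and 28.1, 30.5 and 39.9 CPM in WT. Cnp, a phosphodiesterase of the uncompacted channels of the sheath, had 146, 197 and 226 CPM in cKO and 171, 192 and 244 CPM in WT. Again cKO 4 and cKO 5 were the only cKO animals below the lowest WT animal, and the medians ran the other way from the means. The log2 fold changes were -0.06 ± 0.13 (SE) for Mag, -0.10 ± 0.13 for Mog and -0.08 ± 0.12 for Cnp, with edgeR adjusted p of 0.916, 0.859 and 0.874. Their 95% intervals ran from -0.34 to 0.21, from -0.37 to 0.17 and from -0.34 to 0.17. Leaving out the library labelled cKO 1 put Mag at -0.13, Mog at -0.14 and Cnp at -0.15. Without cKO 4 Mog was at -0.03 and Cnp at -0.02, and without WT 5 they were at -0.03 and -0.02. Mag turned to 0.01 without cKO 4 and to 0.01 without WT 5. Without cKO 3 Mog was at -0.16, Cnp at -0.14 and Mag at -0.12.

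Aspa, Opalin and Ugt8a had the largest differences of the 9, and none of them passed. Aspa, the enzyme that splits N-acetylaspartate and supplies acetate for lipid synthesis, had 6.74, 8.49 and 12.4 CPM in cKO and 8.53, 10.2 and 13.96 CPM in WT. Opalin, a transmembrane protein of the paranodal loops, had 8.70, 10.9 and 12.7 CPM in cKO and 10.5, 12.03 and 18.04 CPM in WT. Ugt8a, which makes galactosylceramide, had 20.5, 34.7 and 42.01 CPM in cKO and 31.75, 35.8 and 51.3 CPM in WT. In Aspa 4 cKO animals were below the lowest WT animal, and the library labelled cKO 1 was above 5 of the 6 WT animals. In Opalin and Ugt8a 2 cKO animals were below the WT range. The log2 fold changes were -0.26 ± 0.14 (SE, 95% interval -0.56 to 0.05, edgeR adjusted p = 0.60) for Aspa, -0.24 ± 0.14 (-0.53 to 0.06, edgeR adjusted p = 0.63) for Opalin and -0.23 ± 0.16 (-0.58 to 0.12, edgeR adjusted p = 0.708) for Ugt8a. Without the library labelled cKO 1 Aspa was at -0.39 with an unadjusted p of 0.00501 and an edgeR adjusted p of 0.163, Ugt8a at -0.33 and Opalin at -0.30. Without WT 5 Opalin was at -0.11, Ugt8a at -0.12 and Aspa at -0.16.

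Gjc3, a connexin of oligodendrocytes, had the smallest spread of the 9. Its lowest, median and highest level was 36.02, 45.8 and 51.3 CPM in cKO and 42.5, 46.2 and 58.5 CPM in WT. Animals cKO 4 and cKO 5 were below the WT range, and the other 4 lay within it. Its log2 fold change was -0.12 ± 0.10 (SE, 95% interval -0.32 to 0.09, edgeR adjusted p = 0.748). It was -0.155 without the library labelled cKO 1, -0.07 without cKO 4 and -0.05 without WT 5.

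**Figure D2:**
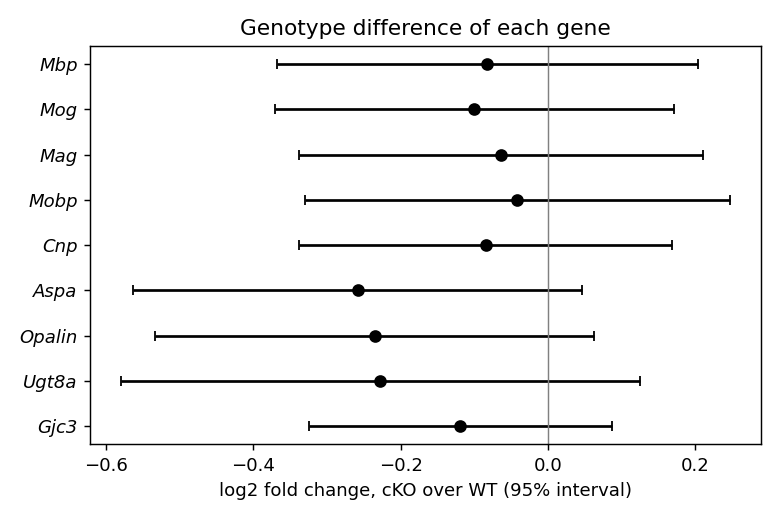
Log2 fold change of each gene, cKO over WT (x axis), as a point with its 95% interval from edgeR. All 9 points lie left of 0, from -0.26 for Aspa to -0.04 for Mobp, and all 9 intervals cross 0.

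The 3′ UTRs of the 9 genes were searched for matches to the seeds (bases 2 to 8) of the 69 mature miRNAs that RefSeq (GRCm38.p6) places between Mir379 and Mir410 on the plus strand of chromosome 12. A miRNA guides silencing proteins to transcripts that pair with its seed. The longest annotated UTRs of the 9 genes held 2 sites (Mag, 535 bases) to 13 sites (Gjc3, 2991 bases, and Mbp, 3935 bases), where 89.3% of 15274 genes with a UTR held at least 1. Per kilobase, Aspa had 13.5 sites, in a UTR of 444 bases, Opalin 6.77, Ugt8a 5.66, Mog 5.26, Gjc3 4.35, Mag 3.74, Mbp 3.30, Cnp 3.22 and Mobp 2.41, beside a median of 3.93 over all genes. A match is a description of the letters and does not show that the miRNA acts there. The miRNAs below are shown because their seeds, in capitals, matched the UTRs of 3 or more of the 9 genes. The seed of miR-544-3p matched Mbp, Mag, Opalin and Gjc3 (17.0% of all UTRs), and those of miR-134-3p (12.3%) and miR-539-5p (17.2%) each matched Mbp, Mog and Gjc3.
miR-544-3p: aUUCUGCAuuuuuagcaagcuc
miR-134-3p: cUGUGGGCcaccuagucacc
miR-539-5p: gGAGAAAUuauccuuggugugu

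A second set is shown because each matched the UTR of Ugt8a at 2 places. The seeds of miR-382-5p, miR-412-3p and miR-494-3p occurred at all in 10.9%, 12.7% and 15.1% of all UTRs, and the share with 2 places was not counted. Matches at 2 places were also found for miR-154-3p in Mobp and for miR-381-3p in Gjc3.
miR-382-5p: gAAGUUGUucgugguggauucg
miR-412-3p: uUCACCUGguccacuagccg
miR-494-3p: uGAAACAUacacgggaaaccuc

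The 9 genes varied more between animals than between genotypes. WT 5 was the highest and cKO 4 the lowest of the 12 animals in every one of the 9 genes, and the highest level was 1.62 times (Gjc3) to 2.51 times (Ugt8a) the lowest. The next lowest animal in median was cKO 5, where all 9 genes were among their 3 lowest animals, followed by WT 3, where 7 were. On the log2 scale the median deviation from each gene's mean over the 12 animals was -0.45 in cKO 4, -0.35 in cKO 5 and -0.15 in WT 3. At the other end it was 0.38 in WT 5, 0.23 in the library labelled cKO 1, 0.20 in cKO 3 and 0.18 in WT 1. The other 5 animals lay between -0.07 and 0.03. High and low animals thus occurred in both genotypes.

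**Figure D3:**
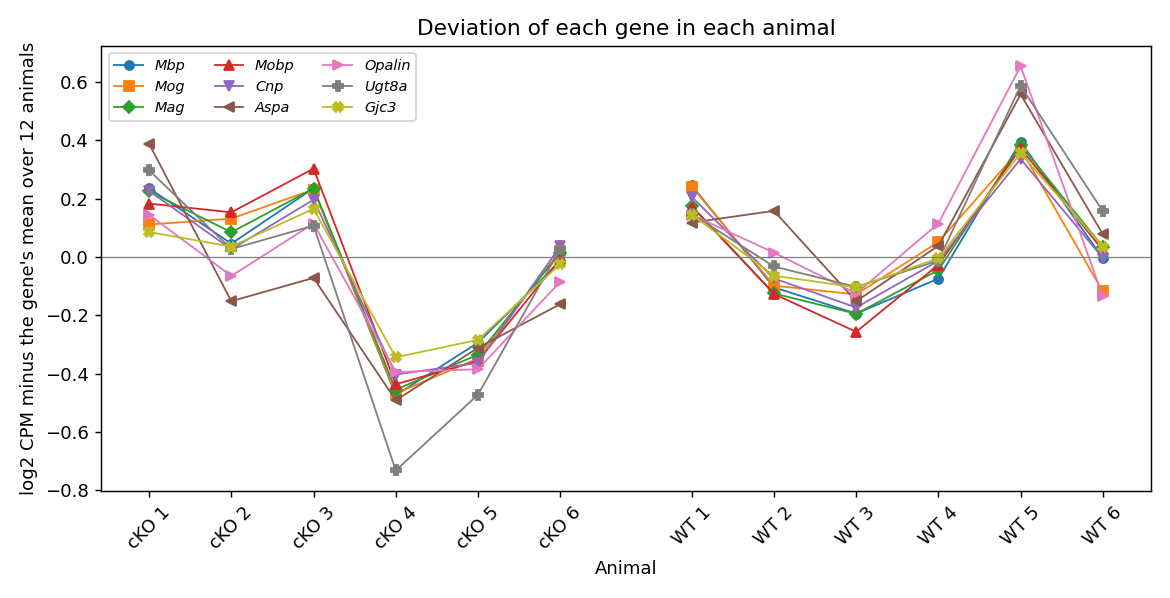
Log2 CPM of each gene minus that gene's mean over the 12 animals (y axis), for the 6 cKO and then the 6 WT animals (x axis), with 1 line per gene. The 9 lines dip together at cKO 4 and cKO 5 and peak together at WT 5, where their median deviation is 0.38.

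The spread of the 9 genes within a genotype was large for genes of their abundance. Their median SD within genotype was 0.261 on the log2 scale, beside 0.135 over all genes tested and 0.0879 over genes of at least 5 CPM. It was largest in Ugt8a (0.329, larger in 19.1% of all genes tested) and smallest in Gjc3 (0.187, larger in 38.4%). The coefficient of variation of Ugt8a was 25.1% in cKO and 19.0% in WT, that of Mbp 19.0% in cKO and 16.6% in WT, and that of Gjc3 13.8% in cKO and 12.2% in WT.

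All 36 pairs of the 9 genes were positively correlated over the 12 animals on log2 CPM, with a median Pearson r of 0.936 and a range of 0.733 to 0.991. The median over all 186718150 pairs of genes tested was -0.004, and 1.36% of those pairs reached the lowest r of the 36. By permutation, two-sided and adjusted over the 36 pairs, all 36 passed 0.05 for Pearson's r and for Spearman's rho. Without the library labelled cKO 1 the median was 0.93 and the lowest r 0.725. After each genotype's mean was subtracted the median was 0.948, so the pattern held within genotypes. Within cKO the median r was 0.973, with 33 of 36 pairs past an adjusted p of 0.05 by exact permutation. Within WT the median r was 0.913, with 35 of 36 pairs past that level by the same test. The lowest r of the 36 was 0.703 within cKO and 0.774 within WT. Of all pairs of genes tested, 7.78% reached that lowest r within cKO and 4.53% within WT, against 1.36% over the 12 animals. With the 2 animals farthest from the first gene's median left out, the median r was 0.855 and the lowest 0.465. The 12 values of a pair share their libraries and their scaling.

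Mbp and Mag formed the closest pair, with r = 0.991 and rho = 0.979 (permutation p = 1e-05 for both, the smallest that the resampling can give, n = 12 animals). Their r was 0.995 within cKO, 0.987 within WT, and 0.982 without the 2 farthest animals. Mag and Mobp, the adhesion protein next to the axon and the basic protein of compact myelin, put the 12 animals in the same order (r = 0.989, rho = 1.0, permutation p = 1e-05 for both). Aspa followed the others least. Its r with Mog was 0.733 (permutation p = 0.0072) and its rho 0.622 (permutation p = 0.0357), with r = 0.703 within cKO, 0.774 within WT and 0.467 without the 2 farthest animals, cKO 4 and cKO 5. By r its closest partner was Ugt8a, the other lipid-related enzyme of the 9, with r = 0.902 (permutation p = 0.00016) and rho = 0.755 (permutation p = 0.00632). By rho it was Opalin, with rho = 0.811 (permutation p = 0.00214) and r = 0.885 (permutation p = 0.00018). Aspa departed from the rest in the library labelled cKO 1, where it was 0.39 above its mean on the log2 scale, and in cKO 2 and cKO 3, where it was below its mean while Mbp, Mag, Mobp and Cnp were above theirs.

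Promoters of 8 of the 9 genes were searched for motifs, and that of Mbp was not searched. The promoter windows of these 8 genes, 300 bases from 250 before to 50 after the annotated start, were taken from RefSeq (GRCm38.p6). They were searched on both strands for the core of MYRF, the transcription factor that drives myelin genes (CTGGCAC or CTGGTAC), and for a core of SOX factors such as Sox10 (ACAAAG or ACAATG). The motifs do not overlap each other. The MYRF core was present for Mog, Mag, Cnp and Opalin, in 5 of 10 windows since Mag has 3, and in 7.1% of 32851 windows of all genes. The SOX core was present for Mag, Mobp, Cnp and Opalin, in 5 of 10 windows, and in 28.6% of all windows. In both counts of windows Mag enters with overlapping windows that hold the same MYRF site and the same SOX site. Aspa, Ugt8a and Gjc3 held neither, which says only that these letters are not in these windows. Mag and Mobp are printed as genes that ordered the 12 animals alike, and Aspa as the one that followed least. Capitals mark the motifs. Mag holds 1 of each, Mobp 6 SOX cores and no MYRF core, and Aspa no match.
Mag promoter, chr7:30914814-30915113, minus strand: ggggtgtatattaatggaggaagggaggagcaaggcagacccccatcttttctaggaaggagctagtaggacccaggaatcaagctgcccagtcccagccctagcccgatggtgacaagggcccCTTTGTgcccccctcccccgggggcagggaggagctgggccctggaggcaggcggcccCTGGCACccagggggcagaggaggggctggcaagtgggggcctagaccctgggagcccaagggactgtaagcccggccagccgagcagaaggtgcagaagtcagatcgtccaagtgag
Mobp promoter, chr9:120149492-120149791, plus strand: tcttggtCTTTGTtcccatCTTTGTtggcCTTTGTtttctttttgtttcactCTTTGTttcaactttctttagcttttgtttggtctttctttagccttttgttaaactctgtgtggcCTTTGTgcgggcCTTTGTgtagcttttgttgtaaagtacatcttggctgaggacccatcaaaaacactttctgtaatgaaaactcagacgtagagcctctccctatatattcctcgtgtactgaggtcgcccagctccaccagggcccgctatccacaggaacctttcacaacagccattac
Aspa promoter, chr11:73324588-73324887, minus strand: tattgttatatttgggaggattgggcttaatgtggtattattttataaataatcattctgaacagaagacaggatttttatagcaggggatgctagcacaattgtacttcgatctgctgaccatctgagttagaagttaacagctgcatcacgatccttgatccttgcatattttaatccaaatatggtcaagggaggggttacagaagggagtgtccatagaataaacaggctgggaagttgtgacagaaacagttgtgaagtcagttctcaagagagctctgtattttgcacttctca

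Other genes were ranked by their r with the mean of the 9 genes (each scaled to unit variance, after subtraction of genotype means) over the 12 animals, among 12162 genes of at least 5 CPM. Among the 10 nearest genes outside the 9 were Tmem88b (0.985), Ttyh2 (0.984), Fa2h, the enzyme that hydroxylates the fatty acids of galactolipids (0.983), Prr18 (0.98), Rhog (0.979), Plekhb1 (0.977), Tmem63a (0.976), Litaf (0.976) and Cldn11, the tight-junction protein of myelin (0.98). Of the 9 genes themselves, 8 were among the top 50, from Mag at rank 1 to Opalin at rank 45, and Aspa was at rank 112. Each of the 9 is part of the mean it is compared with. The median r of all ranked genes was -0.0669, and 1.79% had an r of at least 0.8. None of the 10 genes passed the genotype test, with edgeR adjusted p from 0.867 (Fa2h) to 0.992 (Plekhb1).

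Other genes of the oligodendrocyte lineage differed in how far they followed. Of the other myelin membrane protein genes, 7 of 9 had an r of at least 0.8, among them Pllp (0.97), Tspan2 (0.968), Mal (0.958) and Ermn (0.95), while Omg, which neurons also express, had -0.04. Of the other mature oligodendrocyte genes 10 of 13 did, including Gpr37 (0.969), the gap-junction gene Gjb1 (0.938) and Adamts4 (0.93). Of the lipid enzyme genes 2 of 6 did, Fa2h (0.983) and Cers2 (0.839), with Elovl1 lowest at 0.402. Of 8 transcription factors, 3 did: Myrf (0.969), which drives myelin genes, Nkx6-2 (0.927) and Sox10 (0.925). St18 (0.606), Sox8 (0.597), Zfp488 (0.589), Olig1 (0.488) and Olig2 (0.157) were lower. Of the newly formed oligodendrocyte genes, Bcas1 had 0.959 and Enpp6 0.871, but Gpr17 0.263 and Itpr2 0.185. Of 8 precursor genes none reached 0.8: Neu4 had 0.291, Pdgfra, the growth factor receptor that defines precursors, 0.235, Cspg4 -0.265 and Cacng4 -0.72. Without the library labelled cKO 1 the 10 nearest genes had an r of 0.971 to 0.99, Aspa moved to rank 73, and the numbers at or above 0.8 were 7 of 9 membrane protein genes, 9 of 13 mature genes, 3 of 8 transcription factors and 0 of 8 precursor genes. These r are descriptions without a test.

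**Figure D4:**
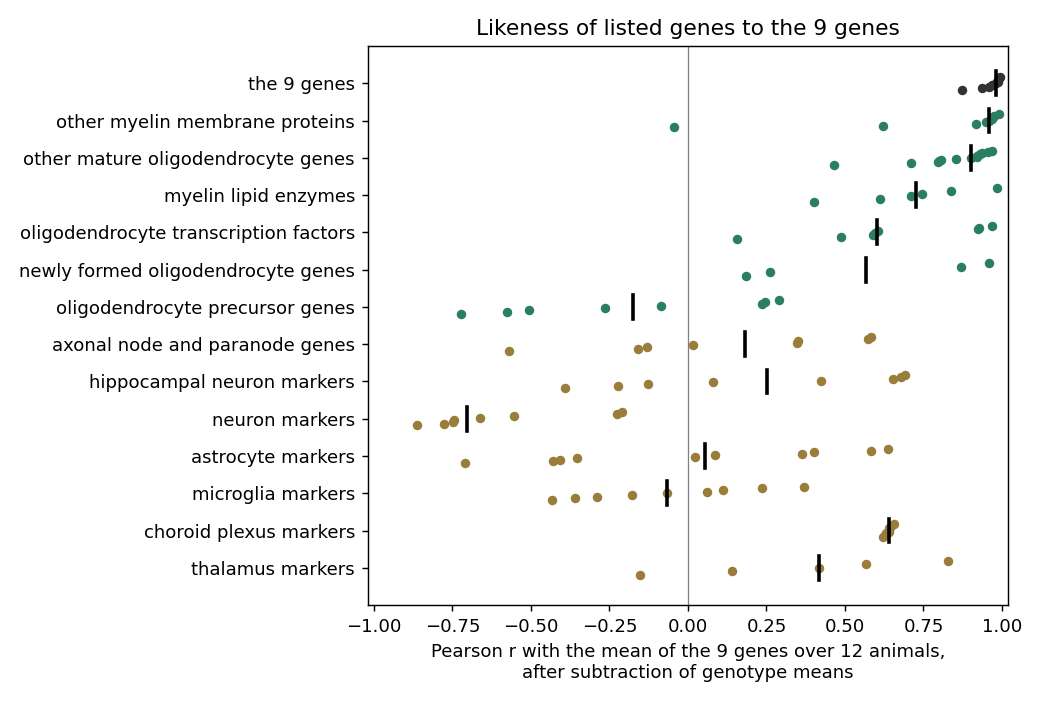
Pearson r of each listed gene of at least 5 CPM (points) with the mean of the 9 genes over 12 animals after subtraction of genotype means (x axis), by gene list (rows), with the list median as a bar. Black points are the 9 genes, green points other oligodendrocyte lists and brown points other cell types and structures. The list medians run from 0.958 for the other myelin membrane protein genes, where Omg lies apart at -0.04, to -0.703 for neuron markers, and the precursor genes spread from -0.72 to 0.29.

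The summed levels showed the same split. The 9 genes summed to 2170 to 3540 CPM in cKO and 2600 to 3930 CPM in WT, a 1.81-fold range over the 12 animals. The precursor genes summed to 154 to 177 CPM in cKO and 149 to 168 CPM in WT, a 1.18-fold range, and their highest library was cKO 4, the lowest for the 9. Pdgfra was at 55.0 CPM in cKO 4 and 55.8 CPM in WT 5, the animals at either end for the 9 genes.

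Lists of related genes did not pass the genotype test either. In edgeR, with p-values adjusted over all genes tested, 0 genes were called in any of 7 lists. The other myelin membrane protein genes had 9 of 9 estimates below 0 and a median log2 fold change of -0.05, with Omg at -0.08 ± 0.04 (SE) and Pllp at -0.10 ± 0.09. The transcription factors had 8 of 9 below 0 and a median of -0.10, with Nkx6-2 at -0.17 ± 0.14 (SE) and Olig2, a factor of the whole lineage and the one of smallest p, at -0.13 ± 0.06 (unadjusted p = 0.0547). The other mature oligodendrocyte genes had 11 of 14 below 0 (median -0.06), with Gjb1 at -0.21 ± 0.16 and Apod, an apolipoprotein, at 0.15 ± 0.12. The newly formed genes had 5 of 6 below 0 (median -0.05), with Bmp4, a secreted signal, at 0.23 ± 0.21. Above 0 were 6 of 8 precursor genes (median 0.07), among them Cacng4 at 0.10 ± 0.05, and 4 of 6 lipid enzyme genes (median 0.03), with Elovl1 at 0.13 ± 0.08. Of all genes tested 46.6% were below 0, and the sign counts of the lists were not tested. These 6 lists held 0 genes with an unadjusted p under 0.05, against 9.54% of all genes tested. With the library labelled cKO 1 left out, the medians were -0.10 for the membrane protein genes, -0.15 for the transcription factors, -0.11 for the mature genes and -0.09 for the newly formed genes, still with 0 genes called. An unadjusted p under 0.05 was then found for 1 transcription factor, Olig2, and 1 precursor gene, Cacng4, and for 2381 of all 19457 genes tested.

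Genes of the node of Ranvier and its flanks had 9 of 9 estimates below 0, which 46.6% of all genes tested shared, and a median log2 fold change of -0.11. An unadjusted p under 0.05 and a lower level in cKO were found for 3 of 9, where 6.34% of all genes tested were. Ank3, the anchor of nodal sodium channels, was at 397 to 445 CPM in cKO and 406 to 551 CPM in WT (-0.21 ± 0.06 (SE), edgeR adjusted p = 0.353). Scn8a, a sodium channel of mature nodes, was at 397 to 424 CPM in cKO and 393 to 468 CPM in WT (-0.11 ± 0.04). Kcna1, a potassium channel of the flanks, was at 56.1 to 67.6 CPM in cKO and 57.4 to 89.5 CPM in WT (-0.21 ± 0.10). When the library labelled cKO 1 was left out, 3 of 9 were again lower at an unadjusted p under 0.05, against 8.96% of all genes, and Ank3 was at -0.23 with an edgeR adjusted p of 0.151. The ranges of Ank3, Scn8a and Kcna1 overlapped between genotypes, and their r with the mean of the 9 genes was 0.348, 0.015 and 0.582. Over the 8 genes of this list with at least 5 CPM, r ran from -0.57 to 0.582. Without the library labelled cKO 1 it ran from -0.463 to 0.798, the highest being Nfasc.

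Markers of 13 other cell types or neighbouring tissues were summed in each library and set against each of the 9 genes, 117 relations in all. None passed an adjusted p of 0.05, and the smallest adjusted permutation p was 0.233, with 19 relations at an unadjusted p under 0.05. Choroid plexus markers had a median r of 0.591 with the 9 genes, 0.695 within cKO and 0.56 within WT. Ependymal markers had 0.61, with 0.936 within cKO and 0.438 within WT. Foxj1, a regulator of motile cilia, and Ccdc153 were lowest in cKO 4, at 8.93 and 2.32 CPM. Rarres2 and Tmem212 were lowest in WT 3, at 3.87 and 0.918 CPM, and Dynlrb2 in WT 2, at 0.645 CPM. The sum of the ependymal list was lowest in WT 3, at 19.2 CPM. Neuron markers ran the other way, with a median r of -0.58, -0.955 within cKO and -0.422 within WT. Neocortex markers had a median r of -0.968 within cKO and 0.508 within WT, a difference that was not tested, and -0.285 over all 12 animals. The largest single relation was of Aspa with the hippocampal neuron markers, with r = 0.787 (permutation p = 0.0026, adjusted p = 0.233). Its rho was 0.811 (permutation p = 0.00231, adjusted p = 0.119), and its r was 0.989 within cKO and 0.097 within WT. Single markers of that list ran from -0.391 (Fibcd1) to 0.692 (Dsp) in their r with the mean of the 9 genes. Within the list's cKO sum of 910 to 1330 CPM, Zbtb20 alone ran from 234 CPM (cKO 4) to 539 CPM (the library labelled cKO 1). Thalamus markers had a median r of 0.859 within WT and 0.0396 within cKO, a difference that was not tested. With the 2 animals farthest from each gene's median left out, the r of the thalamus list with the 9 genes ran from -0.277 to 0.884. Single thalamus markers of at least 5 CPM ran from -0.151 (Slc17a6) to 0.828 (Plekhg1) in their r with the mean of the 9 genes. Astrocyte markers had a median of 0.00127, with -0.148 within cKO and -0.0337 within WT. Microglia markers had -0.0201, with 0.0848 within cKO and -0.509 within WT, a difference that was not tested. Single astrocyte markers ran from -0.711 (Aldoc) to 0.638 (Gfap) in their r with the mean of the 9 genes. Of the 117 relations, 0 passed without the library labelled cKO 1 (smallest adjusted permutation p 0.365, 13 at an unadjusted p under 0.05), and the neocortex medians were -0.97 within cKO and 0.508 within WT. The part of any of these cell types in the spread of the 9 genes was not tested.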

How the data were processed

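PolyA RNA of bulk hippocampus was sequenced per the labels. The authors deposited unscaled expected counts for 33250 gene symbols in 12 animals. The submitters' processing notes name Salmon 1.3.0 and GRCm38. The annotation, the strand setting and how transcripts were summed are not stated there or in the labels. Expected counts were rounded to whole numbers.

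Genotypes were compared over all 12 libraries with edgeR 4.0.16 (quasi-likelihood, TMM, filterByExpr at 10 counts and 15 in total) in R 4.3.3, with Benjamini-Hochberg adjustment over all genes tested at 0.05. Correlations used log2 CPM (prior count 2), with 100000 permutations over 12 animals and all orders within a genotype. DESeq2 1.42.0, limma-voom (limma 3.58.1), other scalings, filters and left-out animals were alternatives. Within a genotype, the chi-square per degree of freedom between libraries was at least 8.26. Animals are separate per the labels, so p-values measure the spread between animals.

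The 9 genes, the gene lists and the alternatives were chosen with earlier results of these data known. Named genes were the 9, up to 4 of smallest p per related list, and the 10 genes most like the 9; some of these are not reported here. Other genes in the lists were named after their values were seen. The seed and promoter searches are descriptions, and the seed search was added after the counts were seen.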

Additional observations from a re-analysis of the deposited data

Results flagged for a closer look

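In 58 groups of 6 animals (each of the 9 genes and each summed list, by genotype), 1 animal stood apart from the other 5 in 2 groups, where chance gives about 2.9. Opalin in WT 5 was at 18 CPM, beside 10.5 to 12.7 CPM in the other WT animals, and the gap was 0.71 of the group's range. Ugt8a in WT 5 was at 51.3 CPM, beside 31.7 to 38 CPM, with a gap of 0.68 of the range. Dixon's 95% limit for 6 samples was passed in both. In all 9 genes WT 5 was the highest animal.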

How the results depend on the processing

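None of the 9 genes passed an adjusted p of 0.05 under any of 21 alternatives, where the smallest adjusted p was 0.163 (Aspa, without the library labelled cKO 1). Of 189 estimates, 184 kept their sign. Mag, from -0.126 to 0.0125 with 1 animal left out, turned to 0.00951 without cKO 4 and 0.0125 without WT 5, and Mobp, from -0.117 to 0.0357, to 0.0321 without cKO 4, 0.0142 without cKO 5 and 0.0357 without WT 5. Leaving out 1 animal moved the median log2 fold change of the 9 between -0.164 and -0.0263, and the number below 0 between 7 and 9. Over all genes, edgeR called 2, and DESeq2 76, limma-voom 0 (1847 at an unadjusted p under 0.05), edgeR without a low-count filter 1, and edgeR without WT 2, WT 3 and cKO 4 0 (1457). With 1 animal left out it called 0 to 6, the 6 without the library labelled cKO 1. Animal number as a replicate block gave 0 calls and a median of -0.107 for the 9 genes. Same-numbered animals deviated together in 2 of 6 pairs (correlation over 0.1), and 2 of 12 libraries correlated best with their own number. No pairing by number was thus seen in these values, though such a check cannot exclude one. The lowest r of the 36 pairs was 0.611 without cKO 4 and 0.636 without WT 5, and 0.611 to 0.794 over all single animals left out, with a median r of 0.914 to 0.95. The 117 marker relations gave 0 calls under 4 alternatives chosen after seeing the data (smallest adjusted p 0.0598, after subtraction of genotype means, and 0.365 without the library labelled cKO 1). Likeness and the related lists without that library were added after seeing the data too. The causes were not tested. Counts of 319 and more per gene leave counting error small beside the spread between animals, and 6 animals per genotype limit the genotype comparison.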
